A study of Homo sapiens with 24 samples.

Results

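The experiment compared the effect of the peptide MOTS-c on gene expression after a long and after a short exposure of HEK293 cells, a continuously growing line derived from human embryonic kidney. All 24 arrays of the series entered, 6 in each of 4 groups defined by the sample labels. The groups were cells given 10 µM MOTS-c for 72 h, cells given water for 72 h, cells given 10 µM MOTS-c for 4 h and cells given water for 4 h. Every culture grew in phenol-free DMEM with fetal bovine serum, and the peptide was added to the medium of a single cell line. The quantity described is a difference of differences, called the interaction: MOTS-c minus control at 72 h, less MOTS-c minus control at 4 h. It was computed for 13283 genes, which are all the genes tested in the series. The same number is also the change in MOTS-c cells, 72 h minus 4 h, less the change in control cells over the same time.

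MOTS-c is a peptide of 16 residues read from a short open reading frame inside a mitochondrial ribosomal RNA gene. It is known for effects on the folate and methionine cycles, purine synthesis and the energy sensor AMP-activated kinase. HEK293 cells respond to growth factors and stress with rapidly induced transcription factors, and they carry NF-kB, a factor held in the cytoplasm by inhibitor proteins until a signal frees it to switch on chemokine and cytokine genes.

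Levels are log2 bead intensities after background correction and quantile normalization, and all differences are on that log2 scale. They compare a gene with itself between groups and do not rank genes against each other. A positive interaction means that the effect of MOTS-c was higher at 72 h than at 4 h, and a gene was called at a limma p-value under 0.05 after Benjamini-Hochberg adjustment over all 13283 genes. The sources used here do not state whether replicates are separate cultures. The p-values therefore rest on sample-to-sample spread that may be technical, and the number of arrays limits their precision. RNA was measured in bulk, so fewer cells expressing a gene and less RNA per cell cannot be told apart.

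Mean raw intensity per array was 483 ± 70.7 in MOTS-c cells at 72 h, 459 ± 74.5 in control cells at 72 h, 520 ± 72.7 in MOTS-c cells at 4 h and 516 ± 32.9 in control cells at 4 h (SD, n = 6 each), and 20719 to 23405 probes were detected per array. On the first principal component, which held 54% of the variance, MOTS-c cells at 72 h lay between -0.96 and 12.01, control cells at 72 h between 25.8 and 38.7, MOTS-c cells at 4 h between -21.4 and -15.3, and control cells at 4 h between -23.2 and -19.3. Replicate 5 of the 72 h controls stood apart from its group: its correlation with the mean of the other 5 arrays was 0.992 and that of the next array 0.996, and it was the brightest of the group at 597. Of 10 neuronal and neuroendocrine markers that HEK293 cells express, 9 were measured and 8 or more were detected on all 6 arrays of each group, whereas 0 of 10 kidney tubule markers were measured.

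The interaction was called for 4522 genes, which is 34% of those tested, 2217 with a positive value (16.7%) and 2305 with a negative value (17.4%). Without replicate 5 of the 72 h controls the number was 5097. When arrays were scaled to a common median in place of quantile normalization, 1874 were positive and 1144 negative, so that 62.1% of calls were positive, beside 49% here, and the median interaction of all genes was 0.096 in place of 0.002. Of the called genes, 164 differed by at least 1 on the log2 scale, 109 of them negative. The 72 h effect was called for 5984 genes (45.1%) and the 4 h effect for 1 gene (0.00753%), with 6886 and 1567 genes at an unadjusted p under 0.05. Over all genes the SD of the log2 difference was 0.330 for the 72 h effect and 0.121 for the 4 h effect, beside a median standard error of 0.086 for each.

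Seen as changes over time, fewer genes were called in MOTS-c cells than in control cells. The labels do not say whether medium or peptide was renewed, so time of treatment and age of the medium cannot be told apart in any change over time. Between 4 h and 72 h, 5067 genes changed in MOTS-c cells (38.1%), 2645 up (19.9%) and 2422 down (18.2%). In control cells 8320 genes changed (62.6%), 4237 up (31.9%) and 4083 down (30.7%). Changes of at least 1 on the log2 scale were called for 118 genes in MOTS-c cells and for 591 in control cells. The SD over genes was 0.294 in MOTS-c cells and 0.484 in control cells. Across genes, which are not independent replicates, the changes in the separate sets of arrays had a Pearson correlation of 0.661.

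The interaction shares its arrays with both changes, so the following counts only describe its parts. Among the 2217 positive genes, 1334 fell in control cells without a call in MOTS-c cells, 448 fell in both, 222 rose in MOTS-c cells without a call in controls, 128 rose in MOTS-c cells and fell in controls, 28 rose in both and 57 were called in neither. Their median change was -0.01 in MOTS-c cells and -0.48 in control cells. Among the 2305 negative genes, 1148 rose in control cells without a call in MOTS-c cells, 666 rose in both, 239 fell in MOTS-c cells without a call in controls, 172 fell in MOTS-c cells and rose in controls, 33 fell in both and 47 were called in neither. Their median change was 0.04 in MOTS-c cells and 0.54 in control cells. The most frequent class on either side was therefore a called change over time in control cells with none called in MOTS-c cells.

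**Figure D1:**
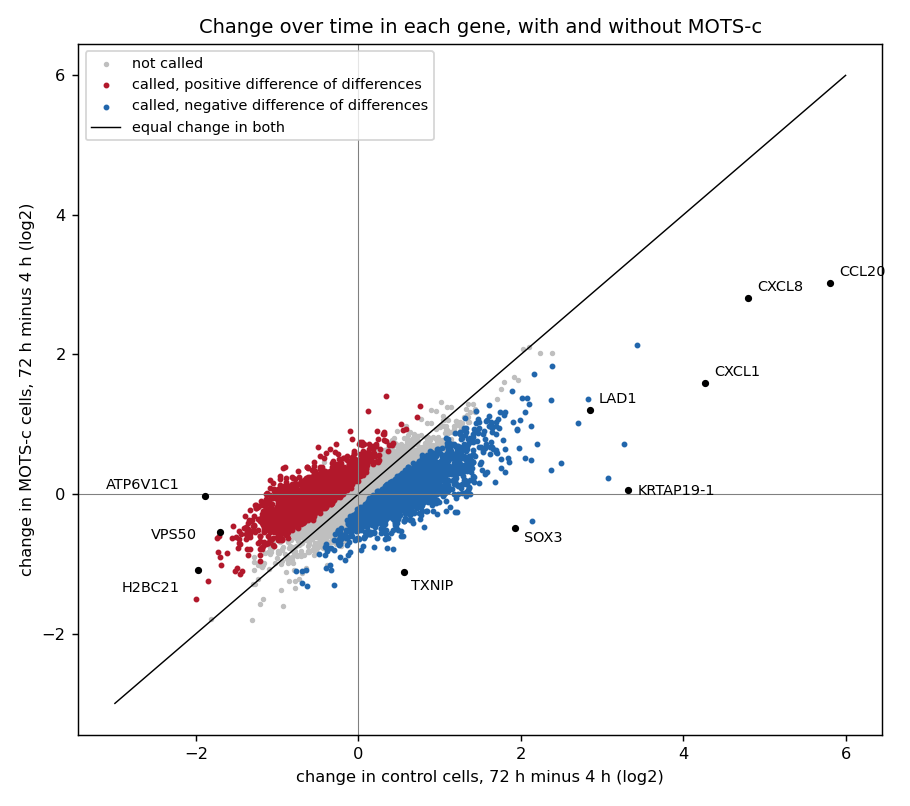
Each point is 1 of 13283 genes. The vertical axis gives the change in MOTS-c cells and the horizontal axis the change in control cells, each 72 h minus 4 h in log2 units; the diagonal marks equal change, colours mark the sign of a called interaction and black points are named genes. CCL20, CXCL8 and CXCL1 lie far to the right and below the diagonal, and ATP6V1C1 lies above it with -0.03 in MOTS-c cells and -1.89 in control cells.

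NF-kB and inflammatory genes had the lowest median interaction of the 22 main lists, over all members and over those detected in every group. Of 19 measured genes, 13 were negative, 2 positive and 4 not called, against 17.4% negative and 16.7% positive among all genes tested. These shares, 34% in both directions together, are the background for the interaction counts of every list below. CXCL10, CXCL2 and TNF were undetected on all 6 arrays of at least 1 group. Without them 10 were negative and 2 positive of 16, and medians are given over these 16. These had a median interaction of -0.65, beside 0.002 for all genes, and median changes over time of 0.51 in MOTS-c cells and 1.04 in control cells. Without replicate 5 of the 72 h controls the list's counts were the same, 13 and 2.

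The promoters of the chemokine genes CXCL1 and CXCL2 are shown because their windows hold the same NF-kB-type motif (GGGA, any 2 bases, then TTCC) at nearly the same place, whereas CCL20, which had the smallest p of the list, has no match. The windows run from 250 bases before to 50 after the start of each gene (RefSeq, GRCh38.p14). They are chr4:73869143-73869442 on the + strand for CXCL1, chr4:74099146-74099445 on the - strand for CXCL2, and chr2:227813592-227813891 on the + strand for CCL20. Capitals mark the motif, searched on both strands.
CXCL1: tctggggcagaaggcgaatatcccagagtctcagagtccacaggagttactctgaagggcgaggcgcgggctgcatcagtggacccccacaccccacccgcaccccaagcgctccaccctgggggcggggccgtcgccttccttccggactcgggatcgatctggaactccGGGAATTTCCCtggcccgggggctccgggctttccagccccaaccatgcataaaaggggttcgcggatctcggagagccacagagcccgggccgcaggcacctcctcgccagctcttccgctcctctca
CXCL2: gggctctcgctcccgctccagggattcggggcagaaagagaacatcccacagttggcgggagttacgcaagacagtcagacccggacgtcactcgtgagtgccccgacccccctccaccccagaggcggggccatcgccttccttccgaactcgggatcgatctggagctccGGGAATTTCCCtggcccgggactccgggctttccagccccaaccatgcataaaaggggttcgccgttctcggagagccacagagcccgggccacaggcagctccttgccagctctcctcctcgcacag
CCL20: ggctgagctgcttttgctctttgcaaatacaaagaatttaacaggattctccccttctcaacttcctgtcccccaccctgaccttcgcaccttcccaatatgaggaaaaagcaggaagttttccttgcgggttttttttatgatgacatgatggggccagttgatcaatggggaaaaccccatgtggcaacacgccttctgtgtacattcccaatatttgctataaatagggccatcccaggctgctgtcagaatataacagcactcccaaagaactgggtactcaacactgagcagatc
The capitals hold a match on each strand, overlapping and starting 79 and 78 bases before the start of CXCL1 and 78 and 77 before that of CXCL2. Of 15 list members with a promoter in the table, 9 held the motif, which stood in 564 of all 35116 windows (1.61%). A match describes the letters and is not evidence of a binding site. Other forms of NF-kB-type motif were not searched, so the lack of a match in CCL20 is not evidence that such a site is absent.

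CCL20 encodes a chemokine that attracts lymphocytes and dendritic cells. Its level ran from 8.08 to 8.37 (median 8.22) on MOTS-c 72 h arrays and from 10.98 to 11.31 (11.05) on control 72 h arrays, against 5.05 to 5.58 (5.15) in MOTS-c cells at 4 h and 5.19 to 5.54 (5.24) in control cells at 4 h, where 1 of 6 arrays in each group detected it, so its level at 4 h is close to background. Both 72 h groups lay above both 4 h groups, the MOTS-c arrays at 72 h lay wholly below the controls, and the 4 h groups overlapped. The interaction was -2.79 (SE 0.116, limma adjusted p = 2.05e-15, with n = 6 per group here and below), with changes over time of 3.02 in MOTS-c cells and 5.81 in control cells.

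CXCL1, which encodes a neutrophil attractant, ran from 6.90 to 7.62 (median 7.33) in MOTS-c cells at 72 h and from 9.77 to 10.29 (10.08) in controls at 72 h, against 5.37 to 5.98 (5.75) and 5.51 to 6.05 (5.80) in MOTS-c and control cells at 4 h. CXCL8, another neutrophil attractant known as interleukin-8, ran from 9.03 to 9.64 (9.31) and from 11.004 to 11.496 (11.297) in MOTS-c and control cells at 72 h, against 6.14 to 6.84 (6.44) and 5.99 to 6.85 (6.56) at 4 h. For both chemokines the same order held as for CCL20, with no overlap at 72 h and overlapping ranges at 4 h. CXCL1 rose by 1.59 over time in MOTS-c cells and by 4.27 in control cells, an interaction of -2.68 (SE 0.164, limma adjusted p = 4.27e-12). CXCL8 rose by 2.81 and by 4.80, an interaction of -1.99 (SE 0.185, limma adjusted p = 1.04e-08).

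TNF, the cytokine that itself activates NF-kB, and CXCL2 fell below detection on the 12 arrays at 4 h, and their interactions therefore have no stated size. TNF lay between 6.98 and 7.51 (median 7.22) on control 72 h arrays, all detected, and between 4.87 and 5.44 (5.17) on MOTS-c 72 h arrays, of which 1 detected it. In control cells TNF was at least 3.41-fold higher at 72 h than at 4 h. CXCL2 was at least 6.53-fold higher at 72 h than at 4 h in control cells and at least 1.08-fold higher in MOTS-c cells. Bounds compare the group's mean with the lowest detected signal on each array of the undetected group.

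Inhibitors that NF-kB induces against itself, and one of its own subunits, were also negative. NFKBIA, which holds NF-kB in the cytoplasm, changed over time by 0.07 in MOTS-c cells, where it was not called, and by 1.16 in control cells, with an interaction of -1.09. TNFAIP3, an enzyme that edits ubiquitin chains on signalling proteins, rose by 0.97 and 2.12 with an interaction of -1.15, and the NF-kB subunit gene RELB by 1.34 and 2.37 with an interaction of -1.03. The positive exceptions were PTGS2, the inducible cyclooxygenase, at 0.42 and the inhibitor gene NFKBIE at 0.28. These 5 genes were chosen after their values were seen.

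Immediate early genes encode transcription factors and regulators that growth factors and stress switch on within minutes. Of 20 measured, 13 were negative, 0 positive and 7 not called, with a median of -0.58 and median changes over time of 0.36 in MOTS-c cells and 0.92 in control cells. Under median scaling 11 were negative.

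MYC, a transcription factor that drives growth, ran from 9.06 to 9.18 (median 9.11) in MOTS-c cells at 72 h and from 9.98 to 10.23 (10.07) in controls at 72 h, against 9.17 to 9.39 (9.26) and 9.18 to 9.47 (9.27) in MOTS-c and control cells at 4 h. The control 72 h arrays lay above all others, and MOTS-c 72 h arrays overlapped with MOTS-c arrays at 4 h. Over time MYC fell by 0.16 in MOTS-c cells and rose by 0.78 in control cells, an interaction of -0.94 (SE 0.085, limma adjusted p = 6.75e-09), and its other probe gave -0.77. IER3, which modulates cell death, rose by 0.24 in MOTS-c cells and 1.42 in control cells (interaction -1.18, SE 0.130). KLF10, a TGF-beta-induced factor, rose by 0.43 and 1.499 (interaction -1.07, SE 0.138), and ZFP36, which destabilizes cytokine mRNAs, by 0.51 and 1.20 (interaction -0.69, SE 0.087).

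MAPK feedback inhibitors shut off the kinase cascade that induces the immediate early genes. Of 13 measured, 7 were negative (6 without DUSP4, which was detected on 0 arrays at 4 h), 2 positive and 4 not called. Under median scaling 3 were negative and 2 positive. The phosphatase genes DUSP1 at -0.70 (SE 0.088) and DUSP10 at -0.76 (SE 0.114) had the smallest p, each with a larger rise in control cells (1.03 and 0.96) than in MOTS-c cells (0.33, and 0.19 without a call). At 4 h DUSP10 was detected on 3 of 6 MOTS-c and 1 of 6 control arrays, close to background. DUSP5 at -0.41 was not called under median scaling. SPRED1, a membrane-bound inhibitor of the same cascade, was positive at 0.51 (SE 0.103).

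Interferon-stimulated genes encode antiviral and antigen-processing proteins. Of 23 measured, 12 were negative, 1 positive (the RNA sensor IFIH1, at 0.46) and 10 not called, and 8 and 0 under median scaling. The median change over time had opposite signs, -0.15 in MOTS-c cells and 0.36 in control cells.

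IRF7, a transcription factor of the interferon response, ran from 8.23 to 8.39 (median 8.25) in MOTS-c cells at 72 h and from 9.18 to 9.90 (9.51) in controls at 72 h, against 8.80 to 9.40 (8.98) and 8.71 to 9.25 (9.16) in MOTS-c and control cells at 4 h. Here the MOTS-c 72 h arrays lay below all other arrays, and the control arrays at 72 h overlapped with those at 4 h. IRF7 fell by 0.79 over time in MOTS-c cells and rose by 0.42 in control cells, an interaction of -1.21 (SE 0.169, limma adjusted p = 4.64e-06). IRF9, which carries interferon signals to the nucleus, fell by 0.94 in MOTS-c cells and changed by -0.17 without a call in controls (interaction -0.77, SE 0.172). IFIT3, an antiviral effector, had an interaction of -0.75 (SE 0.121). PSMB9, a subunit of the immunoproteasome, was at -0.92 at the probe used, which 3 of 6 MOTS-c and 1 of 6 control arrays detected at 4 h, but its other probe gave 0.02.

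**Figure D2:**
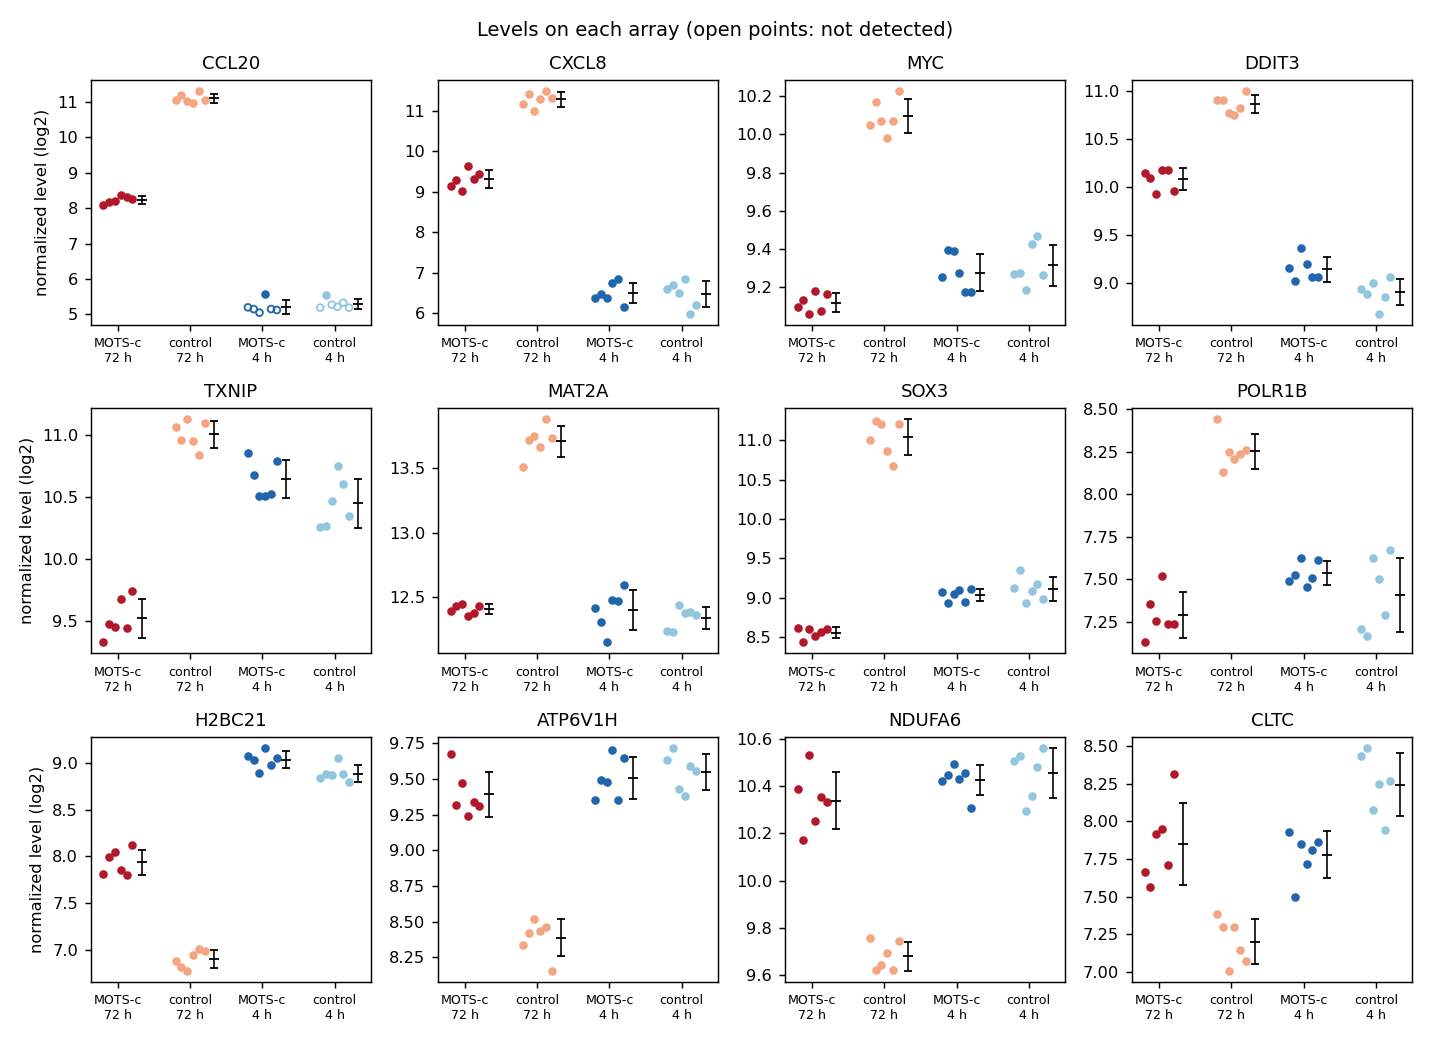
Normalized log2 levels of 12 genes on each of 24 arrays, with MOTS-c 72 h, control 72 h, MOTS-c 4 h and control 4 h from left to right; open points are arrays on which the gene was not detected, bars give mean and SD (n = 6), and each panel has its own axis. In most panels the control 72 h arrays lie away from the other groups, whereas TXNIP, SOX3 and H2BC21 also have MOTS-c 72 h arrays below the 4 h groups.

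Stress genes driven by ATF4 and CHOP respond to amino acid shortage and to unfolded proteins. Of 23 measured, 10 were negative, 1 positive (the amino acid transporter gene SLC38A2, at 0.64) and 12 not called. DDIT3, which encodes CHOP, ran from 9.93 to 10.19 (median 10.13) in MOTS-c cells at 72 h and from 10.75 to 11.004 (10.87) in controls at 72 h, against 9.02 to 9.37 (9.11) and 8.69 to 9.07 (8.92) in MOTS-c and control cells at 4 h. At 72 h the MOTS-c arrays lay below the controls without overlap, and at 4 h the ranges overlapped with the MOTS-c median above that of controls. The effect was -0.78 at 72 h and 0.24 at 4 h, where it was not called (limma adjusted p = 0.24), and the interaction was -1.02 (SE 0.101, limma adjusted p = 2.91e-08). CHAC1, which degrades glutathione and was detected on 3 of 6 control arrays at 4 h, changed over time by 0.00 in MOTS-c cells and 1.05 in control cells (interaction -1.06, SE 0.155). SLC3A2, a subunit of amino acid transporters, rose by 0.41 and 1.17 (interaction -0.76, SE 0.115), and the transcription factor gene CEBPB by 0.30 and 0.93 (interaction -0.63, SE 0.090).

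Endoplasmic reticulum chaperones, which fold secreted proteins, did not share a direction: 6 were positive and 5 negative of 16 measured, and 5 and 2 under median scaling. HSPA5, the main chaperone of that compartment, ran from 9.71 to 9.90 (median 9.85) in MOTS-c cells at 72 h and from 10.44 to 10.58 (10.52) in controls at 72 h, against 9.33 to 9.57 (9.43) and 9.46 to 9.68 (9.63) at 4 h. It was highest in the 72 h controls, without overlap. Its interaction of -0.52 (SE 0.077) was not called under median scaling (-0.34, limma adjusted p = 0.0762). The disulfide isomerase gene PDIA4 fell over time by 0.28 in MOTS-c cells and rose by 0.31 in control cells, and SDF2L1, of a chaperone complex, fell by 0.32 and rose by 0.31, whereas the translocon subunit gene SEC61B fell in both, by 0.23 and 0.59.

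Ribosome biogenesis genes encode the polymerase and assembly factors that make ribosomes. Of 28 measured, 14 were negative, 0 positive and 14 not called, with 8 negative under median scaling. The median change was 0.04 in MOTS-c cells and 0.32 in control cells. POLR1B, the second largest subunit of RNA polymerase I, ran from 7.13 to 7.52 (median 7.25) in MOTS-c cells at 72 h and from 8.13 to 8.44 (8.24) in controls at 72 h, against 7.46 to 7.63 (7.52) and 7.16 to 7.67 (7.39) in MOTS-c and control cells at 4 h. Control arrays at 72 h lay above all others. POLR1B fell over time by 0.25 in MOTS-c cells and rose by 0.85 in control cells, an interaction of -1.09 (SE 0.116, limma adjusted p = 8.03e-08). NOP2, an RNA methyltransferase of the nucleolus, had changes of 0.07 without a call and 0.84 (interaction -0.77, SE 0.073; -1.07 to -0.76 over its 4 probes). POLR1C, shared by RNA polymerases I and III, had an interaction of -0.56 (SE 0.080), and the assembly factor gene RRP12 one of -0.63 (SE 0.091). Cytosolic ribosomal protein genes had 1 positive member (RPL37, whose other probe gave -0.44) and 31 not called of 32. Of 38 mitochondrial ribosomal protein genes, 15 were negative and 4 positive, but 4 and 6 under median scaling, where the median also changed sign (-0.14 and 0.04).

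In the methionine cycle the enzyme gene MAT2A, which makes the methyl donor S-adenosylmethionine, had the smallest p. MAT2A ran from 12.35 to 12.45 (median 12.41) in MOTS-c cells at 72 h and from 13.51 to 13.88 (13.73) in controls at 72 h, against 12.15 to 12.60 (12.45) and 12.23 to 12.44 (12.37) in MOTS-c and control cells at 4 h. Only the control 72 h arrays stood apart, above the rest. The change over time was 0.00 in MOTS-c cells and 1.37 in control cells, an interaction of -1.36 (SE 0.096, limma adjusted p = 6.53e-11). AMD1, which decarboxylates S-adenosylmethionine for polyamine synthesis, changed by 0.13 without a call and by 0.98 (interaction -0.84, SE 0.145). ODC1, the other entry enzyme of polyamine synthesis, was at -0.43 (SE 0.094) and MTHFS, a folate enzyme, at -0.37 (SE 0.082), both not called under median scaling. Of 21 folate and methionine genes, 6 were negative and 2 positive, and under median scaling 3 and 1, with a median of -0.07 that became 0.13.

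TXNIP, which binds thioredoxin and restrains glucose uptake, ran from 9.33 to 9.74 (median 9.47) in MOTS-c cells at 72 h and from 10.83 to 11.12 (11.01) in controls at 72 h, against 10.51 to 10.85 (10.60) and 10.25 to 10.75 (10.41) in MOTS-c and control cells at 4 h. The MOTS-c 72 h arrays lay below all others, and the control 72 h arrays lay above the control arrays at 4 h. TXNIP thus fell over time by 1.12 in MOTS-c cells and rose by 0.55 in control cells, an interaction of -1.68 (SE 0.125, limma adjusted p = 1.99e-10). Its relative ARRDC3 was undetected on all 6 control arrays at 4 h and was at least 1.89-fold higher in control cells at 72 h. Of 21 genes of AMP-activated kinase and energy sensing, 5 were positive and 5 negative (4 without ARRDC3), and 3 and 3 under median scaling. The catalytic subunit genes PRKAA1 at 0.15 (limma adjusted p = 0.333) and PRKAA2 at 0.38 (limma adjusted p = 0.0703; with 3 of 6 arrays detecting it in either group at 72 h) were not called. STK11, the kinase that activates them, was positive at 0.53 (SE 0.121).

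PPARGC1A, a coactivator of mitochondrial biogenesis, ran from 7.39 to 7.69 (median 7.49) in MOTS-c cells at 72 h and from 6.90 to 7.56 (7.33) in controls at 72 h, against 6.91 to 7.31 (6.98) and 7.06 to 7.43 (7.23) in MOTS-c and control cells at 4 h. The MOTS-c and control ranges overlapped at both times. It rose by 0.46 over time in MOTS-c cells and changed by 0.05 without a call in controls, an interaction of 0.41 (SE 0.131, limma adjusted p = 0.0169) that was not called under median scaling (0.47, limma adjusted p = 0.0877) or with the deposited Z scores (0.32, limma adjusted p = 0.0728).

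Beyond the lists, the largest negative interaction among genes detected on at least 3 of 6 arrays in every group was that of KRTAP19-1, a keratin-associated protein gene. It ran from 6.49 to 7.09 (median 6.72) in MOTS-c cells at 72 h and from 9.50 to 10.10 (9.93) in controls at 72 h, against 6.44 to 7.02 (6.64) and 6.38 to 6.84 (6.48) at 4 h. Control arrays at 72 h alone were high. The interaction was -3.27 (SE 0.162) and that of KRTAP19-6 was -2.84 (SE 0.201), but KRTAP19 genes are near-identical in sequence and which of them each probe reports is uncertain. DENND1A, a regulator of membrane traffic, was at -2.53 at the probe used and 0.42 at another of its 3 probes.

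SOX3, a transcription factor of neural progenitors, ran from 8.43 to 8.61 (median 8.59) in MOTS-c cells at 72 h and from 10.68 to 11.25 (11.11) in controls at 72 h, against 8.93 to 9.11 (9.06) and 8.93 to 9.35 (9.10) in MOTS-c and control cells at 4 h. From the shared level at 4 h the groups parted in opposite directions without overlap. SOX3 fell by 0.48 in MOTS-c cells and rose by 1.93 in control cells, an interaction of -2.41 (SE 0.119, limma adjusted p = 6.02e-14). LAD1, a basement membrane anchoring protein, ran from 7.72 to 8.01 (7.90) in MOTS-c cells at 72 h and from 9.48 to 9.83 (9.53) in controls at 72 h, against 6.47 to 6.89 (6.69) and 6.54 to 6.91 (6.75) at 4 h. It was higher at 72 h in both, and more so in controls, with an interaction of -1.65 (SE 0.113). The carbonic anhydrase gene CA4 had an interaction of -1.53 (SE 0.148), and SNORD13, a small nucleolar RNA gene, one of -1.69 (SE 0.386).

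Among positive interactions, the list of V-ATPase, lysosome and autophagy genes covers the proton pump that acidifies lysosomes and the machinery that delivers cargo to them. Of 37 measured, 13 were positive, 2 negative and 22 not called, and 14 and 1 under median scaling. The negative members were the sialidase gene NEU1 and the pump subunit gene ATP6V1F. The median change was -0.04 in MOTS-c cells and -0.33 in control cells. ATP6V1H, a regulatory pump subunit, ran from 9.24 to 9.68 (median 9.33) in MOTS-c cells at 72 h and from 8.16 to 8.52 (8.43) in controls at 72 h, against 9.35 to 9.70 (9.49) and 9.38 to 9.72 (9.57) in MOTS-c and control cells at 4 h. Control cells at 72 h were low and the other groups overlapped. The interaction was 1.05 (SE 0.115, limma adjusted p = 1.25e-07; 0.45 at its other probe). ATP6V1C1, another pump subunit, was at 1.86 (SE 0.206) but at 0.47 at its other probe, and 3 of 6 control arrays detected it at 72 h. ATP6V1A, the catalytic subunit, was at 0.62 (SE 0.098), and ATG3, which joins lipid to autophagy proteins, at 0.54 (SE 0.085; 0.29 at its other probe).

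VPS genes sort cargo between endosomes, lysosomes and the Golgi apparatus. Of 25 measured, 10 were positive, 1 negative (VPS28) and 14 not called, with the same counts under median scaling and 12 and 2 without replicate 5 of the 72 h controls. VPS13A, a lipid transfer protein at membrane contacts, ran from 8.68 to 9.15 (median 8.86) in MOTS-c cells at 72 h and from 7.59 to 7.99 (7.80) in controls at 72 h, against 8.03 to 8.96 (8.52) and 8.45 to 9.13 (8.61) at 4 h. It was lowest in control cells at 72 h, which did not overlap with any other group. The interaction was 1.30 (SE 0.170; 0.30 to 1.30 over its 4 probes). The endosomal recycling gene VPS50 fell by 0.54 in MOTS-c cells and fell by 1.71 in control cells (interaction 1.17, SE 0.197; 0.42 at its other probe), and VPS36, of the ESCRT machinery, was at 0.66 (SE 0.126). VPS53 was at 1.03 at the probe used and at -0.04 at the other.

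Of 26 proteasome subunit genes, which encode the complex that degrades ubiquitin-tagged proteins, 14 were positive, 1 negative (PSMB5) and 11 not called, and 17 and 0 under median scaling. Their median change was 0.02 in MOTS-c cells and -0.27 in control cells. PSMD14, which removes ubiquitin chains at the proteasome, changed by 0.13 and -0.88 (interaction 1.01), and PSMA2, of the core ring, by -0.53 and -1.37 (interaction 0.84); both were chosen after their values were seen.

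Nuclear-encoded genes of oxidative phosphorylation had 15 positive and 2 negative members (NDUFB7 and COX6A1) of 55, with 38 not called. Among all genes 34% were called, 16.7% positive and 17.4% negative. Under median scaling the list's counts were 15 and 0. The list's median interaction was 0.09. NDUFA6, a subunit of complex I, ran from 10.17 to 10.53 (median 10.34) in MOTS-c cells at 72 h and from 9.62 to 9.76 (9.67) in controls at 72 h, against 10.31 to 10.49 (10.44) and 10.29 to 10.56 (10.49) at 4 h. Only control cells at 72 h were apart, and lower. The interaction was 0.69 (SE 0.086, limma adjusted p = 1.02e-06). Values for the complex I genes NDUFS4 and NDUFV2 were 0.37 (SE 0.085) and 0.39 (SE 0.105), and for the ATP synthase gene ATP5F1C 0.41 (SE 0.103).

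In the tricarboxylic acid cycle and pyruvate dehydrogenase list, 10 of 24 were positive and 2 negative, OGDH and PDHB; under median scaling 7 were positive and 1 negative. Of 21 glycolysis and lactate export genes, 5 were positive, 1 negative (ALDOC) and 15 not called. Among all genes 34% were called, 16.7% positive and 17.4% negative. Under median scaling 9 of the list were positive. SLC2A1, the main glucose transporter of the line, ran from 9.77 to 9.96 (median 9.88) in MOTS-c cells at 72 h and from 9.25 to 9.65 (9.47) in controls at 72 h, against 9.66 to 9.83 (9.74) and 9.78 to 9.96 (9.90) at 4 h. Its level was lowest in the 72 h controls, without overlap. The interaction was 0.56 (SE 0.086, limma adjusted p = 1.43e-05). HK1, which phosphorylates glucose, was at 0.33 (SE 0.074) and at 0.11 at its second probe. In the hypoxia response list 7 of 19 genes were positive and 2 negative, namely DDIT4 at -0.80 (SE 0.120) and VEGFA at -0.51. HIF1A, the oxygen-regulated transcription factor, fell by 0.33 in MOTS-c cells and fell by 1.07 in control cells (interaction 0.74, SE 0.137; 0.25 to 0.74 over 3 probes), and the peptide hormone gene ADM fell by 0.16 and 0.65.

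Fatty acid oxidation genes had 10 positive and 1 negative member of 23. The negative member was CPT1C at -0.82 (SE 0.154), a carnitine palmitoyltransferase relative best known from neurons. ACSL1, which activates fatty acids, ran from 8.80 to 9.19 (median 9.01) in MOTS-c cells at 72 h and from 8.36 to 8.69 (8.52) in controls at 72 h, against 8.75 to 9.13 (8.96) and 9.09 to 9.33 (9.15) in MOTS-c and control cells at 4 h. At 4 h the MOTS-c range reached lower than that of controls and overlapped with it, and at 72 h it lay above without overlap. The interaction was 0.70 (SE 0.113, limma adjusted p = 2.93e-05), and the thiolase gene ACAA2 was at 0.51 (SE 0.097). Fatty acid synthesis genes had 8 positive and 1 negative (SREBF1) of 12, and their median change was -0.16 in MOTS-c cells and -0.47 in control cells.

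Cholesterol synthesis and uptake genes fell over time with and without the peptide, 12 of 19 in MOTS-c cells and 14 of 19 in control cells, beside 18.2% and 30.7% of all genes, with medians of -0.50 and -0.51. The interaction was positive for 5 and negative for 4, and for 6 and 0 under median scaling. HMGCS1, the synthase that feeds the pathway, ran from 11.40 to 11.85 (median 11.53) in MOTS-c cells at 72 h and from 10.77 to 11.36 (11.06) in controls at 72 h, against 12.23 to 12.49 (12.44) and 12.35 to 12.52 (12.41) at 4 h. Both 72 h groups were below the 4 h groups and the controls lower still, with an interaction of 0.55 (SE 0.128, limma adjusted p = 0.00145). CYP51A1, a sterol demethylase, was at 0.71 (SE 0.154) and MSMO1, a sterol methyl oxidase, at 0.78, with probes from -0.43 to 0.78. NSDHL, of the same steps, was negative at -0.45 (SE 0.085) but not called under median scaling.

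**Figure D3:**
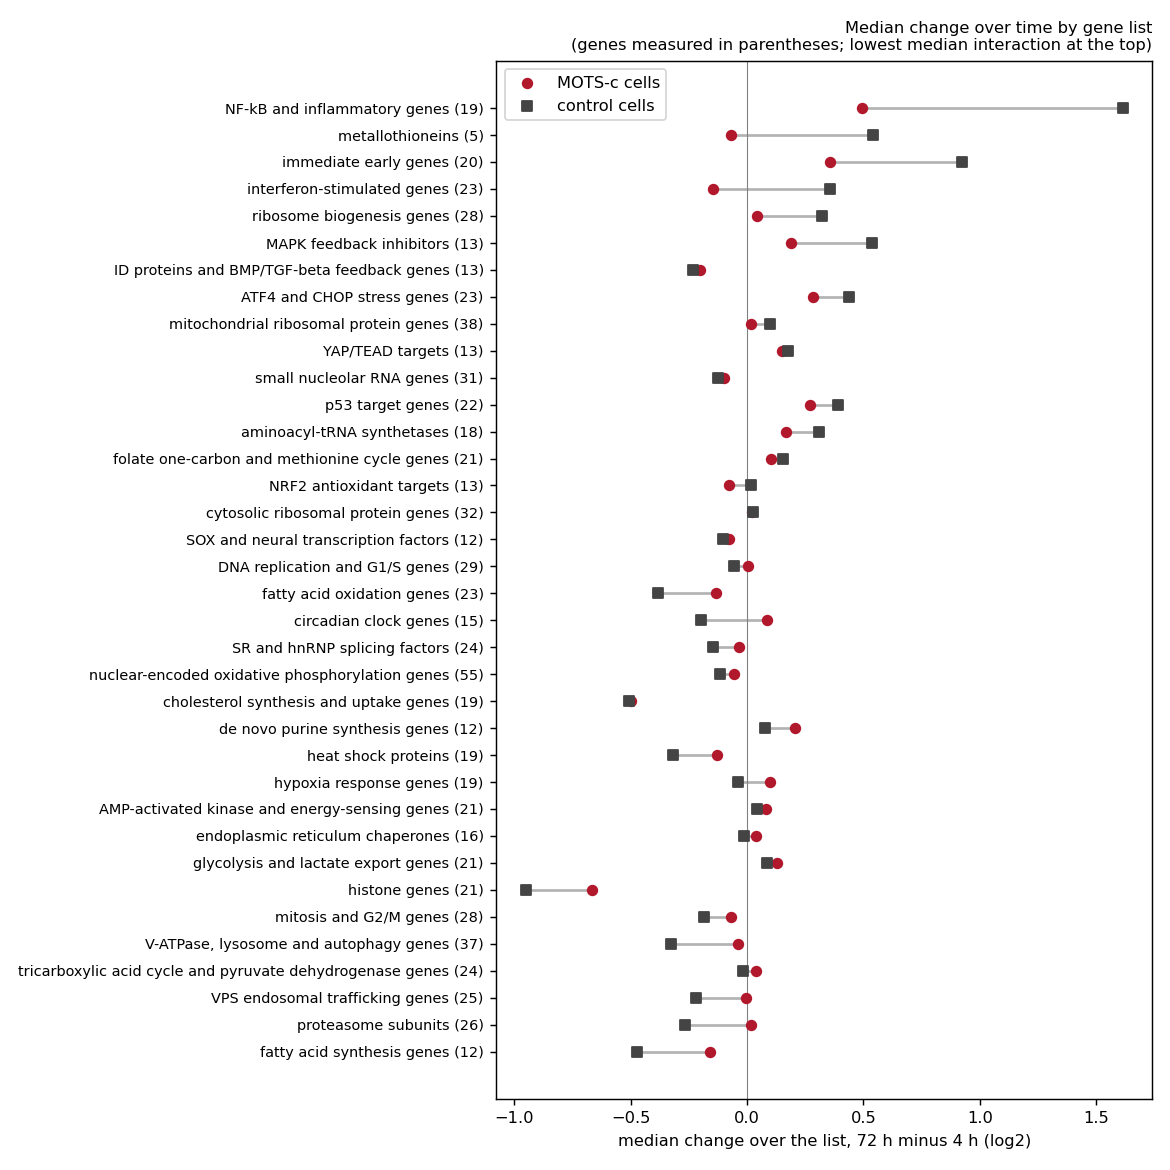
Median change over time, 72 h minus 4 h in log2 units, in MOTS-c cells (circles) and control cells (squares) for 36 gene lists with the number of measured genes in parentheses, all measured members included; lists with the lowest median interaction are at the top. For immediate early genes the circle stands at 0.36 and the square at 0.92, and for histone genes at -0.66 and -0.95.

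Histone genes encode the proteins that package DNA and are mostly transcribed while cells copy it. They fell over time in both conditions, 15 of 21 in MOTS-c cells and 17 of 21 in control cells, beside 18.2% and 30.7% of all genes, with medians of -0.66 and -0.95 (-0.62 and -0.81 over the 20 genes detected in every group). The interaction was positive for 8, negative for 0 and not called for 13, and positive for 7 under median scaling. Several histone genes are near-identical, so some probes may report more than a single gene. The promoter of H2BC21, which had the smallest p of the list, is printed because CCAAT boxes are a known feature of histone promoters and its window holds 3 on the searched strands, starting 170, 142 and 77 bases before the start (RefSeq, GRCh38.p14, chr1:149886633-149886932, - strand). Capitals mark CCAAT or, where the match is on the other strand, its reverse complement.
H2BC21: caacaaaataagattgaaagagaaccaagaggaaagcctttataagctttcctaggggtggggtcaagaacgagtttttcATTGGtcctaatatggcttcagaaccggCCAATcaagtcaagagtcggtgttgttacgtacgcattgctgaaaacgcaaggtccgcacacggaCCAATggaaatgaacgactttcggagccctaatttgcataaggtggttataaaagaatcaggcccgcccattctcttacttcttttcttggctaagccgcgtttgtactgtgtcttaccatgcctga
Of 20 list members with a promoter in the table, 17 held CCAAT on either strand, beside 12155 of 35116 windows (34.6%).

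H2BC21, an H2B gene, ran from 7.80 to 8.12 (median 7.92) in MOTS-c cells at 72 h and from 6.78 to 7.01 (6.92) in controls at 72 h, against 8.89 to 9.16 (9.04) and 8.79 to 9.05 (8.87) in MOTS-c and control cells at 4 h. The 72 h groups were lower than the 4 h groups and apart from each other. Over time H2BC21 fell by 1.09 in MOTS-c cells and fell by 1.98 in control cells, an interaction of 0.89 (SE 0.093, limma adjusted p = 6.83e-08). H1-2, a linker histone gene, was at 0.60 (SE 0.118), H2BC11 at 0.68 (SE 0.138) and H2BC12 at 0.41 (SE 0.082).

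Mitosis and G2/M genes, which drive cell division, had 8 positive and 0 negative members of 28, beside 34% of all genes called (16.7% positive). Without replicate 5 of the 72 h controls the list's counts were 10 and 2. CCNB2, a mitotic cyclin, ran from 11.38 to 11.53 (median 11.47) in MOTS-c cells at 72 h and from 10.81 to 11.04 (10.88) in controls at 72 h, against 11.40 to 11.61 (11.56) and 11.38 to 11.61 (11.57) at 4 h. Control cells at 72 h were lower than every other group. The interaction was 0.55 (SE 0.082, limma adjusted p = 9.9e-06). The cyclin gene CCNA2 was at 0.41 (SE 0.079) and PRC1, which bundles spindle microtubules, at 0.44 (SE 0.080). DNA replication and G1/S genes had 4 positive members, 1 negative (the primase gene PRIM1, lost under median scaling) and 24 not called of 29, a called share of 17.2% beside 34% of all genes. Of 22 p53 target genes, 4 were positive and 6 negative, and 4 and 3 under median scaling. In de novo purine synthesis 2 of 12 were positive and 0 negative, beside 34% of all genes called (16.7% positive). These were GMPS at 0.34 (SE 0.103) and ATIC at 0.30 (SE 0.098), and 4 were positive under median scaling. IMPDH2 at 0.21 (limma adjusted p = 0.0803) and the methionine synthase gene MTR at 0.23 (limma adjusted p = 0.192) were not called. PAICS was not called at the probe used, at 0.18 (limma adjusted p = 0.0952), but its 3 probes ran from 0.18 to 0.61 and their mean was called at 0.34 (limma adjusted p = 0.00056).

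Small nucleolar RNA genes, whose products guide RNA modification, had 6 positive and 4 negative members of 31, a called share of 32.3% beside 34% of all genes. SNORD17 ran from 7.27 to 7.79 (median 7.52) in MOTS-c cells at 72 h and from 6.01 to 6.32 (6.19) in controls at 72 h, against 6.94 to 7.51 (7.29) and 6.96 to 7.26 (7.16) at 4 h. It was lowest in control cells at 72 h, without overlap, and the interaction was 1.23 (SE 0.122, limma adjusted p = 2.88e-08). SNORD96A was at 1.08 (SE 0.097) and SNORD16 at 0.94 (SE 0.144), whereas SNORD95 was at -0.93 (SE 0.120). Many such genes sit in introns of longer transcripts, which their probes may also detect.

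**Figure D4:**
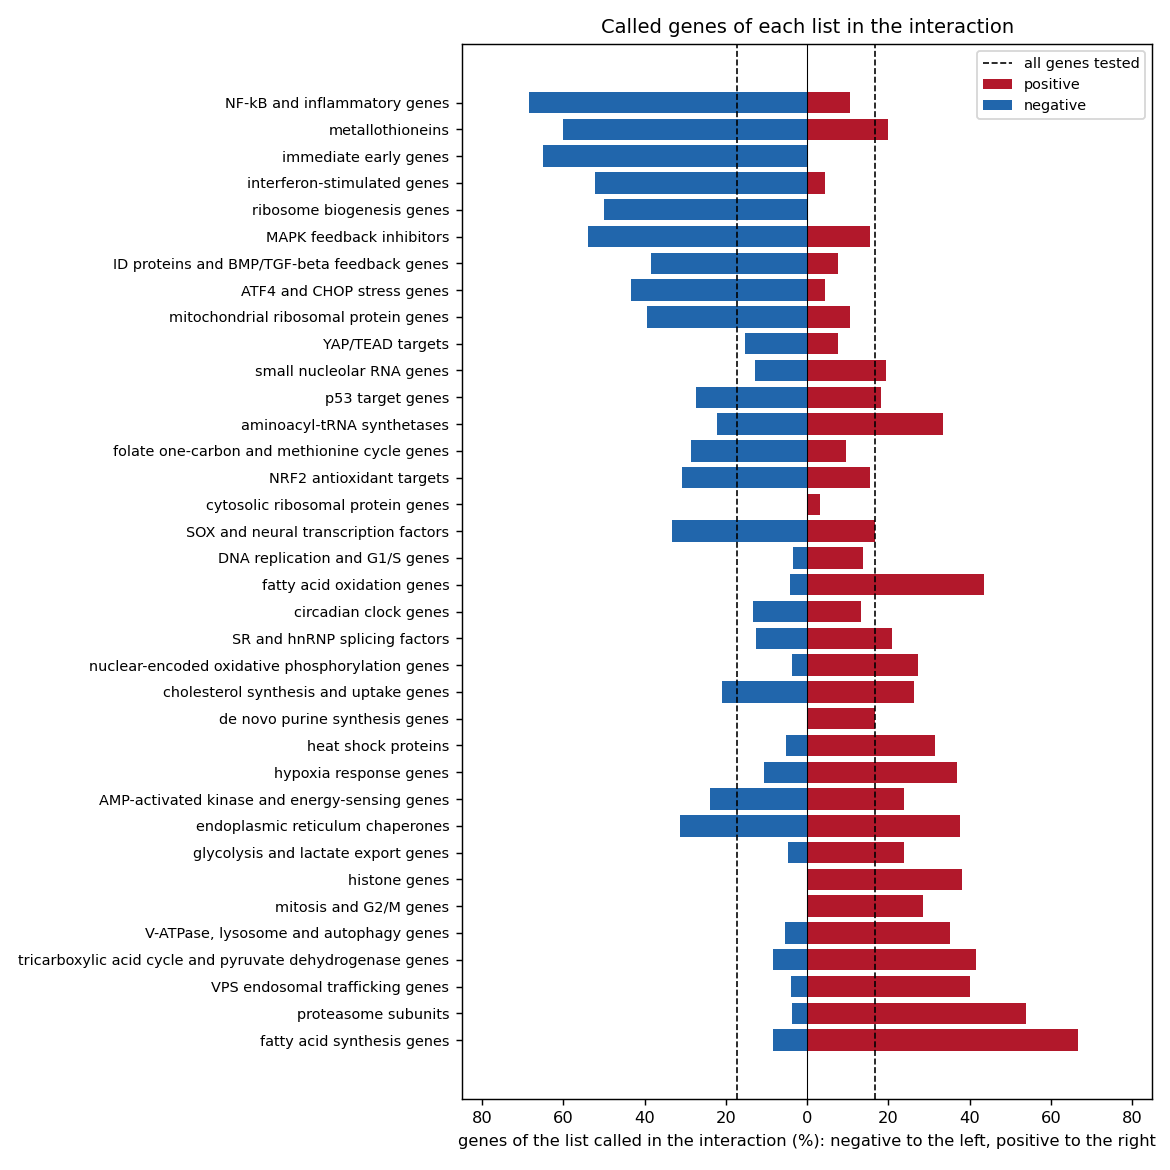
Share of the measured genes of 36 lists with a called interaction, negative to the left and positive to the right, in percent, in the same order of lists; dashed lines mark 17.4% negative and 16.7% positive among all 13283 genes. The bars of NF-kB, immediate early and ribosome biogenesis genes reach far to the left, those of proteasome subunits and fatty acid synthesis genes far to the right.

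The remaining large positive values belonged to genes outside these lists. The WNT regulator gene AMER2, detected on 4 of 6 control arrays at 72 h, was at 1.29 (SE 0.124; 0.74 at its other probe), OGFRL1 at 1.22 (SE 0.144), the synaptic scaffold gene SHANK2 at 1.18 (SE 0.149), and the galectin-like gene LGALSL at 1.18 (SE 0.134). The dynein adaptor gene BICD1, detected on 3 of 6 control arrays at 72 h, was at 1.30 at the probe used, with -0.07 at the lowest of its 3 probes.

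Another form of interaction is an effect that points in opposite directions at the 2 times. Of the 4522 called genes, 538 had opposite effects each at an unadjusted p under 0.05, 330 higher and 208 lower in MOTS-c cells at 72 h. The interaction contains both effects, so this count only describes its parts. CLTC, the heavy chain of clathrin, which coats endocytic vesicles, ran from 7.56 to 8.31 (median 7.81) in MOTS-c cells at 72 h and from 7.01 to 7.38 (7.22) in controls at 72 h, against 7.49 to 7.93 (7.83) and 7.94 to 8.49 (8.26) in MOTS-c and control cells at 4 h. MOTS-c arrays lay above controls at 72 h and below them at 4 h, without overlap at either time. The effect was 0.65 at 72 h and -0.47 at 4 h, where it was not called (limma adjusted p = 0.13), and the interaction was 1.12 (SE 0.154, limma adjusted p = 3.96e-06). Over time CLTC changed by 0.07 without a call in MOTS-c cells and fell by 1.04 in control cells. The centrosomal gene CEP112 had 0.70 and -0.46 at 72 h and 4 h, the nuclear envelope gene SYNE2 0.53 and -0.43, the nucleolar gene DNTTIP2 0.45 and -0.48, and ANKRD37, detected on 1 of 6 MOTS-c arrays at 4 h, 0.58 and -0.48. The 4 h effects of these genes were not called (limma adjusted p from 0.245 to 0.272).

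MT1X, a metallothionein that binds zinc and copper, showed the opposite order. It ran from 8.27 to 8.63 (median 8.44) in MOTS-c cells at 72 h and from 8.91 to 9.31 (9.14) in controls at 72 h, against 8.58 to 8.82 (8.74) and 7.82 to 8.63 (8.45) in MOTS-c and control cells at 4 h. The 72 h groups did not overlap, and at 4 h the MOTS-c arrays lay mostly above the controls with some overlap. Effects of -0.65 at 72 h and 0.37 at 4 h (not called, limma adjusted p = 0.21) gave an interaction of -1.02 (SE 0.140, limma adjusted p = 3.74e-06). SLC35D4, a nucleotide sugar transporter family gene, had -0.54 and 0.40 at 72 h and 4 h, the mitochondrial assembly gene COA4 -0.48 and 0.34, the sulfotransferase gene CHST13 -0.38 and 0.34, and the noncoding host gene MIR503HG -0.38 and 0.36. Here too the 4 h effects were not called (limma adjusted p from 0.152 to 0.333).

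Only 304 of the called genes (6.72%) had an effect at 4 h that was larger in size than that at 72 h. FANCI, of the DNA crosslink repair pathway and the 1 gene called at 4 h, ran from 10.63 to 11.04 (median 10.86) in MOTS-c cells at 72 h and from 10.59 to 10.73 (10.65) in controls at 72 h, against 10.44 to 10.72 (10.52) and 10.83 to 11.10 (10.95) in MOTS-c and control cells at 4 h. MOTS-c arrays lay below controls without overlap at 4 h, and the ranges overlapped at 72 h. FANCI rose over time by 0.29 in MOTS-c cells and fell by 0.29 in control cells, an interaction of 0.58 (SE 0.093, limma adjusted p = 2.54e-05). TOPBP1, which activates the DNA damage checkpoint, had 0.24 at 72 h and -0.30 at 4 h, the splicing factor gene LUC7L2 0.26 and -0.37, and the fatty acid elongase gene ELOVL7 0.43 and -0.58. The 4 h effects of TOPBP1, LUC7L2 and ELOVL7 were not called (limma adjusted p from 0.093 to 0.138). Without single arrays the number of genes called at 4 h ran from 0 to 15, so the 4 h call of FANCI depends on the arrays in the fit, while its interaction was called in each of the 24 fits that left 1 array out.

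**Figure D5:**
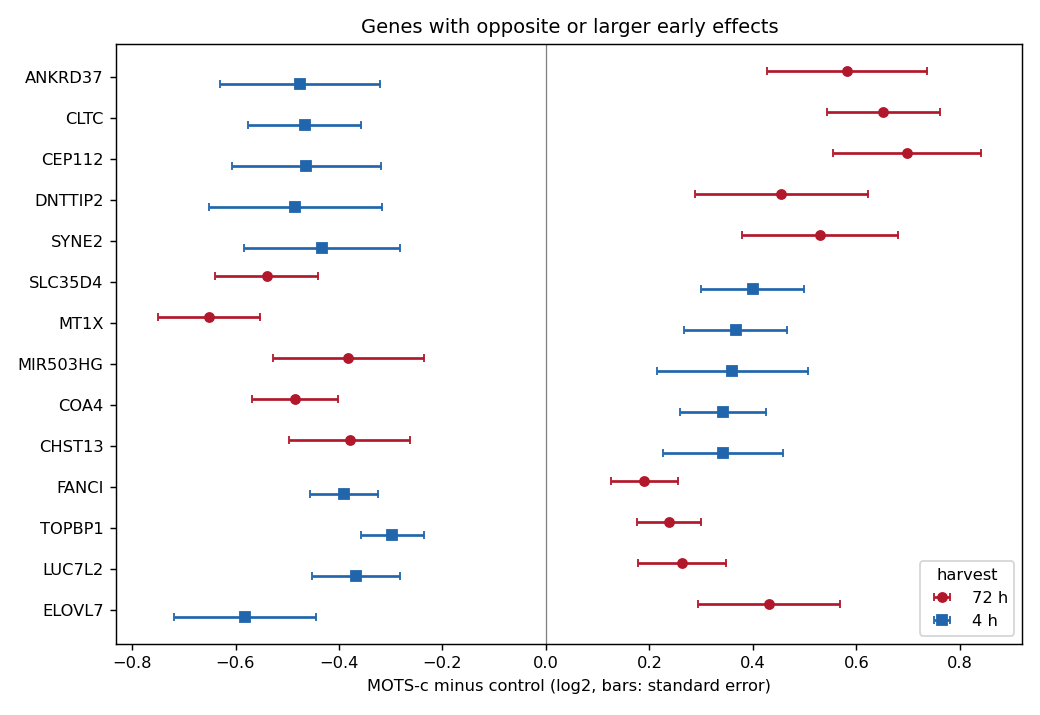
Effect of MOTS-c, MOTS-c minus control in log2 units, at 72 h (circles) and at 4 h (squares) for genes with opposite effects or a larger effect at 4 h; bars are standard errors. CLTC stands at 0.65 at 72 h and -0.47 at 4 h, and MT1X at -0.65 and 0.37. Of the genes shown, FANCI alone had a called effect at 4 h.

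A further form is a transcript found at only 1 of the times. Of the called genes, 104 were undetected on all 12 arrays at 4 h and detected on all 6 arrays of a 72 h group. The interaction was negative for 103 of them. A gene that passed the detection filter only through the control arrays at 72 h had to differ, so this count is a description. CYP2F1, a cytochrome P450 gene, was at least 3.52-fold higher in control cells at 72 h than at 4 h and at least 3.76-fold lower in MOTS-c cells than in controls at 72 h. The adhesion gene ICAM2, at least 1.89-fold higher over time in controls, was at least 2.02-fold lower in MOTS-c cells at 72 h, and the defensin gene DEFB126, at least 1.55-fold higher over time, at least 1.66-fold lower. HES7, a Notch-regulated repressor, was at least 1.96-fold higher at 72 h than at 4 h in controls. The reverse pattern, undetected on all 12 arrays at 72 h, was met by 2 called genes, and their calls were weak: over 36 alternatives SPINK4 kept its call in 31 and SIM1 in 20. SPINK4, a protease inhibitor gene, was at least 1.38-fold lower at 72 h than at 4 h in MOTS-c cells, and SIM1, a neural transcription factor gene, at least 1.45-fold lower in control cells.

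Markers of other cell types were measured in part. Of 6 measured leukocyte markers 2 were negative, CD14 at -0.69 and CD74 at -0.78, and their summed linear level ran from 914 to 1037 in MOTS-c cells at 72 h and from 1012 to 1443 in controls at 72 h, against 1004 to 1438 and 1053 to 1320 in MOTS-c and control cells at 4 h. The endothelial marker VWF, the 1 measured of 8, summed to 40.0 to 62.3 in controls at 72 h and 35.2 or less in every other group. Only in controls at 72 h was VWF detected on all 6 arrays, and at least 1 group had it undetected on all 6. The lower sums are therefore close to background. Of the neuronal markers 4 of 9 were negative, led by the neurofilament genes NEFM at -1.16 and NEFH at -0.83, with sums of 10461 to 11668 in MOTS-c cells at 72 h, 10842 to 11860 in controls at 72 h, 9292 to 10930 in MOTS-c cells at 4 h and 8867 to 9874 in controls at 4 h. The 4 measured of 9 keratinocyte and carcinoma markers were detected on all arrays. Their sums were 11883 to 12900 in MOTS-c cells at 72 h, 11834 to 12580 in controls at 72 h, 8539 to 10786 in MOTS-c cells at 4 h and 9806 to 11362 in controls at 4 h, and 1 was called, the cadherin gene CDH1 at -0.37. Of 5 measured fibroblast markers 1 was negative, but 0 of the 3 detected in every group were called. Under median scaling, and without replicate 5 of the 72 h controls, 0 of the 5 were called. Of 2 hepatocyte markers 0 were called. The part of these markers in the results above was not tested.

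Across the 27 genes whose levels were compared array by array, the 72 h groups did not overlap for 25, the 4 h groups for 2 (FANCI and CLTC, both lower in MOTS-c cells), the 72 h and 4 h arrays of MOTS-c cells for 13 and those of control cells for 25. These genes were chosen for their interactions, so the counts describe them and test nothing. The share of all genes without overlap was not computed. The shares of all genes called, a different measure, were 45.1% at 72 h and 0.00753% at 4 h. Over time they were 38.1% in MOTS-c cells and 62.6% in control cells, and 34% were called in the interaction.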

How the data were processed

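The deposited table held bead intensities of 47323 probes on 24 arrays, exported with GenomeStudio 2011.1 per the submitters' processing notes, neither background-subtracted nor scaled. The authors' detection p-value stood beside each intensity. The deposited value table held the Z score of log10 intensity within each array, which recomputation matched within 5e-10. Other steps are not given in the sources used here.

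Intensities were background-corrected with negative-control parameters inferred from the detection p-values, quantile normalized and log2 transformed (neqc, offset 16; limma 3.58.1, R 4.3.3). A probe was kept where 6 or more of the 24 arrays detected it at p under 0.05 (23931 probes). Of these, 17873 carried 1 gene symbol, 3 several and 6055 none, and the first set gave 13283 genes. For the 3619 genes with several kept probes, the probe with the highest mean stood. Gene names came from GEO's platform annotation. One linear model held the 4 groups with no covariate (20 residual and 6.43 prior degrees of freedom), and the interaction was a contrast tested by limma with Benjamini-Hochberg adjustment. The fit was tested on simulated data with 66 or 67 genes changed at each of 3 sizes. It recovered 16.4% of changes of 0.3 on the log2 scale, 70.1% of 0.6 and 92.4% of 1, with 6 false calls among 125. Far fewer genes were changed there than the 4522 called here, so these shares need not hold for the data. Figures were drawn with matplotlib 3.10.9 (Python 3.11.15).

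The comparison and the gene lists were chosen with earlier results of these data known. Named genes were those called with the 10 largest positive and negative interactions among genes detected on at least 3 of 6 arrays per group, the 6 smallest p among genes undetected at 4 h or at 72 h, the 5 strongest opposite effects each way, the 4 smallest p among genes with a larger 4 h effect, the 4 smallest p in each main list, and 10 further genes of interest. Members of lists outside the 22 main ones, of the marker lists, the exceptions within a list and other genes without SE in the text were chosen after their values were seen. Alternatives changed the scaling, background, offset, detection filter, probe rule, weights, prior, covariate, block, threshold or arrays.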

Additional observations from a re-analysis of the deposited data

Results flagged for a closer look

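Single arrays stood apart from the other 5 of their group in 7 of 120 groups of 6 values compared, by the gap to the nearest array against the range; chance gives about 1 in 20, or 6. In MOTS-c cells at 72 h, HSPA5 was at 9.71 on replicate 5, with the nearest array at 9.84. In control cells at 72 h, LAD1 was at 9.83 on replicate 2, with the nearest at 9.61, and replicate 5 correlated with the rest of its group at 0.992, with the nearest at 0.996. In MOTS-c cells at 4 h, CCL20 was at 5.58 on replicate 4, with the nearest at 5.20. In control cells at 4 h, H2BC21 was at 9.05 on replicate 4 (nearest 8.88), HSPA5 at 9.46 on replicate 1 (nearest 9.61) and MT1X at 7.82 on replicate 2 (nearest 8.35).

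The effect of MOTS-c differed between 72 h and 4 h, by limma's test of the difference itself, for 4522 genes. Among genes with levels given per array, the difference in log2 was -3.27 for KRTAP19-1, -2.79 for CCL20 (detected on 1 of 6 arrays in each group at 4 h), -2.68 for CXCL1, -2.41 for SOX3, -1.99 for CXCL8, -1.68 for TXNIP, -1.65 for LAD1, -1.36 for MAT2A, -1.21 for IRF7, -1.09 for POLR1B, -1.02 for DDIT3, -1.02 for MT1X, -0.94 for MYC and -0.52 for HSPA5. On the positive side it was 1.30 for VPS13A, 1.23 for SNORD17, 1.12 for CLTC, 1.05 for ATP6V1H, 0.89 for H2BC21, 0.70 for ACSL1, 0.69 for NDUFA6, 0.58 for FANCI, 0.56 for SLC2A1, 0.55 for CCNB2, 0.55 for HMGCS1 and 0.41 for PPARGC1A.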

How the results depend on the processing

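Of 125 named genes 120 were called, beside 34% of all genes. Most were chosen among called genes or for a small p, so that share was largely set by the choice. Of the 120 called, 103 kept call and direction in every fit that held the gene, over 13 alternatives and without each of 24 arrays. This count describes the chosen genes and not all called genes. Where probes had to pass detection at 0.01 on every array, some of the 103 dropped out and were not tested. CCL20, CXCL1, CXCL2 and TNF were among them. DENND1A was the 1 reversal, at 0.42 when probes had to pass detection at 0.01 on every array, which removed the probe used. Median scaling left 1144 negative calls of 3018; HSPA5, NSDHL, DUSP5, STRADA, MTHFS, ODC1, PRIM1, PPARGC1A, SPINK4 and SIM1 lost their calls there, and IMPDH2 and PAICS gained one. At an adjusted p under 0.01 the interaction was called for 2980 genes, 1381 of them positive. LDHB, H2BC12, PPARGC1A and SIM1 lost their calls with the deposited Z scores, and TP53I3 and HK1 with the mean of probes. SIM1 lost its call in 16 of 36 alternatives and SPINK4 in 5.

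The 4 h count was 0 under median scaling, array weights, the replicate block and an adjusted p under 0.01. It was 2 with the deposited Z scores, no background correction, or a trended robust prior, 3 with all probes tested separately, 4 with an offset of 50 or the stricter detection filter, and 32 with array brightness as a covariate. With the replicate block the interaction was called for 4433 genes. The numbers are not stated to mark shared cultures. Over 36 same-numbered pairs of arrays r ran from -0.28 to 0.50, and 8 pairs correlated above 0.1. In 4 of the 36 pairs the array correlated best with its own number.

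Leaving out 1 array gave 4078 (without MOTS-c 72 h replicate 6) to 5097 called interactions, 1969 to 2566 positive and 2109 to 2531 negative. The 72 h effect ran from 5477 to 6382, the change over time from 4509 to 5290 in MOTS-c cells and from 7967 to 8430 in control cells. At 4 h the count was 15 without MOTS-c 4 h replicate 1, 9 without control 4 h replicate 5, and 0 without control 4 h replicates 1, 2 or 4, MOTS-c 4 h replicates 3 or 4, control 72 h replicates 3 or 6, or MOTS-c 72 h replicates 1, 3 or 4. The cause of these shifts was not tested. The files give no slide, so a slide block was not run. Signals near background limit genes undetected in a group to bounds.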

Other observations

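Further lists held called genes of either sign, beside 34% of all genes called (16.7% positive and 17.4% negative). The genes named here were chosen after their values were seen. Of 13 NRF2 antioxidant targets, 4 were negative and 2 positive, and 2 and 3 under median scaling. HMOX1, which breaks down heme, rose by 0.24 in MOTS-c cells and by 1.20 in control cells (interaction -0.96, SE 0.123, limma adjusted p = 1.29e-06), whereas GCLM, of glutathione synthesis, was positive at 0.55. Of 13 ID and BMP or TGF-beta feedback genes, 5 were negative (4 without SMURF2, which was detected on 0 control arrays at 4 h) and 1 positive. ID3, an inhibitor of differentiation factors, fell by 0.52 in MOTS-c cells and rose by 0.53 in control cells (interaction -1.05, SE 0.140, limma adjusted p = 2.35e-06). Under median scaling 2 of that list were negative and 0 positive.

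Of 12 SOX and neural transcription factor genes, 4 were negative and 2 positive, and 2 and 1 under median scaling. SOX8 followed SOX3 in sign at -0.89 (SE 0.122), but SOX2, a factor of neural progenitors and stem cells, was positive at 0.82 (SE 0.184; 0.21 at its other probe), as it fell by 0.90 in MOTS-c cells and fell by 1.71 in control cells. Of 19 heat shock proteins, 6 were positive and 1 negative (DNAJB6, with 0.22 at its other probe), and 7 and 0 under median scaling, with HSPA4 at 0.50 (SE 0.095) and HSP90AA1 at 0.38 (SE 0.106). Of 24 SR and hnRNP splicing factors, 5 were positive and 3 negative, and 7 and 0 under median scaling, led by HNRNPU at 0.89 (SE 0.091; -0.03 at its other probe) and SRSF11 at 0.82 (SE 0.120). Of 18 aminoacyl-tRNA synthetases, 6 were positive and 4 negative, and 6 and 1 under median scaling. Of 15 circadian clock genes, 2 were positive and 2 negative, and 0 and 0 under median scaling. Of 13 YAP/TEAD targets, 2 were negative and 1 positive, and 1 and 0 under median scaling, with CCN2 at -0.66. Of 5 metallothionein and zinc genes, 3 were negative and 1 positive.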
